A study of Mus musculus with 8 samples.

Results

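Unshared GATA2 sites in gene deserts are places in the genome where sequencing of immunoprecipitated chromatin (ChIP-seq) gave a peak for the transcription factor GATA2 in one of 2 mouse cell lines and not the other, far from any gene. A peak was taken when it did not overlap a peak of the other line's list by 1 bp, its centre lay outside every protein-coding RefSeq gene, and the nearest boundary of such a gene was more than 100 kb away. The rule found 422 of the 2445 peaks of 3T3-L1 (17.3%) and 221 of the 1557 peaks of C3H10T1/2 (14.2%), which is 643 of 4002 peaks in all. The sites were chosen by their measured peak positions and by the absence of an overlapping peak, so these numbers are a description and carry no test.

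3T3-L1 cells are preadipocytes, fibroblasts already set on becoming fat. C3H10T1/2 cells are less restricted mouse embryo fibroblasts, able to give fat, bone, cartilage or muscle. Both came from a culture collection, were used at passages 4 to 6, and carried no treatment or genetic change in the labels. The labels name 2 GATA2 ChIP libraries (antibody sc-9008x) and 2 input libraries without antibody for each line, made from DNA pooled over separate immunoprecipitations. What was analysed is 1 peak list per line, holding positions in the mm10 build and no height, score or p-value, so no value could be set against a spread between cultures. Read depth is unknown. Peak positions carry no expression, so the lines could not be checked against marker genes.

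GATA2 is a zinc finger factor that binds DNA at the letters GATA and holds precursor cells of blood and fat in an immature state. Gene deserts are long stretches without protein-coding genes, and many lie beside genes that direct development. Enhancers inside them can act on a gene at the edge of the desert or on one beyond it, so the genes named here as flanking a site give its place on the chromosome and not its target.

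The bases under the peaks were not used here. The RefSeq sequences shown here are from start sites of long non-coding RNAs, which the distance rule does not count. None of the 643 peaks overlapped a window from 250 bases before to 50 bases after an annotated start, and 6 lay within 1 kb of one or more of 7 such windows. The same counts for other peaks or for desert sequence are not given here. Shown are the pair that came closest and the single one of the 7 windows that held AGATAA or TGATAA on either strand. Each is given 5′ to 3′ on its own strand (RefSeq, GRCm38.p6, which is mm10), with AGATAA or TGATAA on either strand in capitals, a motif that 18.6% of all 32851 windows of this length hold. The first belongs to Gm38811 (chr6:51711156-51711455, minus strand), 63 bp from the 3T3-L1 peak chr6:51711013-51711093 between Snx10 and Skap2. The next belongs to Gm31378 (chr10:38122219-38122518, minus strand), 43 bp from the C3H10T1/2 peak chr10:38122049-38122176 between Marcks and Rfpl4b. The last belongs to Gm40436 (chr12:70590336-70590635, plus strand), 697 bp from the 3T3-L1 peak chr12:70589541-70589639.
Gm38811: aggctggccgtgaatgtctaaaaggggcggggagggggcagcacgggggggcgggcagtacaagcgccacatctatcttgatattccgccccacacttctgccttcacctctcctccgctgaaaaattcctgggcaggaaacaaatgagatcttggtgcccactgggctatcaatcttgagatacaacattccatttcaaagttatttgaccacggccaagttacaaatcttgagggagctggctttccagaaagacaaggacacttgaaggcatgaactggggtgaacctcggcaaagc
Gm31378: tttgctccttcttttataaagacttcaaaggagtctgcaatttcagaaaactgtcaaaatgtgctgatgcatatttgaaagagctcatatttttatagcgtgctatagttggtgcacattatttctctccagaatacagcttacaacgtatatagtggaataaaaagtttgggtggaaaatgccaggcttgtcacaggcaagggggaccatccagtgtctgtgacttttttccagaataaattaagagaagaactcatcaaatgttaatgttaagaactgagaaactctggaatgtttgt
Gm40436: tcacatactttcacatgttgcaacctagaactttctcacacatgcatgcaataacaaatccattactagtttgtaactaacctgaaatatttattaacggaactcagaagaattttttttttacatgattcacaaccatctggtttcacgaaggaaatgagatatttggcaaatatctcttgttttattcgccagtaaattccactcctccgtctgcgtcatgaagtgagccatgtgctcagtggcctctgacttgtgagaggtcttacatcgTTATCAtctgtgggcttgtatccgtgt
The windows of Gm38811 and Gm31378 hold neither AGATAA nor TGATAA, and that of Gm40436 holds the motif once. Other sequences with the letters GATA were not marked or counted.

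One site, singled out after its values were seen, had microRNA hairpins within 20 kb. The 3T3-L1 peak chr9:41523518-41523617 lay in the body of Mir100hg, the host RNA of these microRNAs, 7.86 kb from the Mir100 hairpin (41531425 to 41531504) and 13.1 kb from the Mirlet7a-2 hairpin (41536716 to 41536811). Its flanking genes were Ubash3b at 362 kb and Gm40514 at 382 kb. The mature sequences found for these hairpins in the RefSeq table (GRCm38.p6) are shown because they are the nearest annotated products, with the seed (bases 2 to 8) in capitals.
miR-100-5p: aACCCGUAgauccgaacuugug
miR-100-3p: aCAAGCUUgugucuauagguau
let-7a-2-3p: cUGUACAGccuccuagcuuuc
The 3 seeds shown differ from one another. For Mirlet7a-2 only the 3p sequence was found, so a 5p product of that hairpin is not shown.

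The lines held nearly the same share of unshared peaks in deserts. It was 22.2% of 1897 unshared peaks in 3T3-L1 (95% exact Clopper-Pearson interval 20.4 to 24.2) and 21.7% of 1017 in C3H10T1/2 (19.2 to 24.4). Among peaks that the lines shared, 22.6% of 548 in 3T3-L1 (19.2 to 26.4) and 21.7% of 540 in C3H10T1/2 (18.3 to 25.4) lay in deserts. Of the 2600 Mb between the first and last gene of each chromosome, 28.4% lay more than 100 kb from a gene. Intervals here and below cover counting error over peaks only. Dense runs of peaks (8 or more in a row, neighbours no more than 20000 bp apart) moved the first of these shares. With them left out it was 26.4% of 1453 peaks (24.2 to 28.8), while C3H10T1/2 stood at 22.1% of 998 (19.6 to 24.9).

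**Figure D1:**
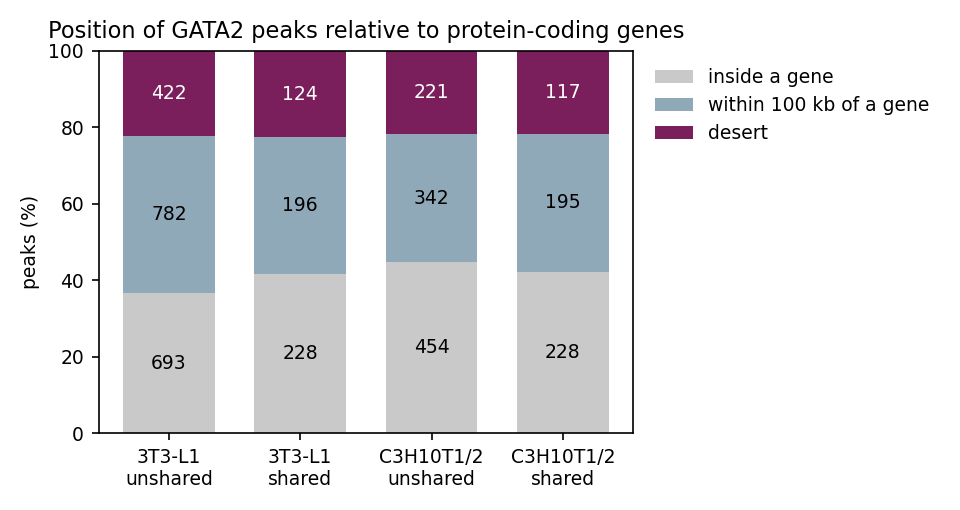
Share of peaks (%, vertical axis) inside a protein-coding gene, outside genes but within 100 kb of one, and in deserts, for unshared and shared peaks of each line, with the number of peaks in each segment. The desert segment is 21.7 to 22.6% of every bar, and the 422 and 221 unshared desert sites are the peaks described here.

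The run that held desert sites lay between Cpsf6, which encodes a pre-mRNA 3′ end processing factor, and the carboxypeptidase gene Cpm on chromosome 10. It held 38 desert sites between 117477400 and 117529244, all 100.3 to 126.1 kb from the nearer gene, with a median width of 99 bp. No C3H10T1/2 peak lay in that gap. The 38 sites are part of a run of 376 peaks that goes on over Cpm and Mdm2. Without it 384 sites of 3T3-L1 are left. Counts below are of all 422 sites unless they are said to leave the run out.

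The sites spread over many deserts. There were 1537 gaps between neighbouring genes longer than 200 kb, the length needed to hold a site, and together they held 738 Mb more than 100 kb from a gene. A 3T3-L1 site lay in 203 of them (13.2%) and a C3H10T1/2 site in 131 (8.52%). In 3T3-L1, 119 gaps held 1 site, 45 held 2 and 39 held 3 or more. In C3H10T1/2 the numbers were 82, 28 and 21. Per Mb of desert this gave 0.520 sites of 3T3-L1 without the dense run and 0.300 of C3H10T1/2. The rest of the genome between genes' outer limits had 0.574 and 0.417 unshared peaks per Mb, also without dense runs (0.792 and 0.427 with them). One site of each line lay before the first gene of its chromosome and so had a gene on a single side, Gdi2 in 3T3-L1 (chromosome 13) and the vomeronasal receptor gene Vmn1r238 in C3H10T1/2 (chromosome 18).

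Site density by chromosome is given as a description, with no test. In 3T3-L1, chromosomes 2 and 10 had 1.16 and 1.15 sites per Mb of desert without the dense run, against 0.103 on X. In C3H10T1/2, chromosome 13 had 0.865 and chromosome 16 had 0.718, while chromosome 2 had 0.278 and X had none in 58.1 Mb. Chromosome 13 was dense in both, with 0.895 in 3T3-L1, whereas chromosome 19 had 0.961 in 3T3-L1 and 0.0961, a single site, in C3H10T1/2.

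Of 422 sites of 3T3-L1, 225 (53.3%) lay over 200 kb from the nearest gene, and of 221 of C3H10T1/2, 136 (61.5%). These distances depend on the 100 kb limit and on gap length, and the same shares for desert sequence are not given here. The median distance to the nearest gene was 222 kb in 3T3-L1 (240 kb without the dense run) and 255 kb in C3H10T1/2. More than 500 kb from any gene lay 59 of 422 sites (14.0%, or 15.4% of 384) and 37 of 221 (16.7%), and more than 1000 kb away lay 9 and 3. At the limit itself, the innermost 3T3-L1 site was 100.21 kb from Asap1 (chr15:64483046-64483258), and the outermost unshared peak that missed the rule was 99.064 kb from Hes1 (chr16:29762143-29762238). In C3H10T1/2 these were at 100.71 kb from Agr3 (chr12:35824854-35824977) and 98.958 kb from Ahr (chr12:35246205-35246671).

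**Figure D2:**
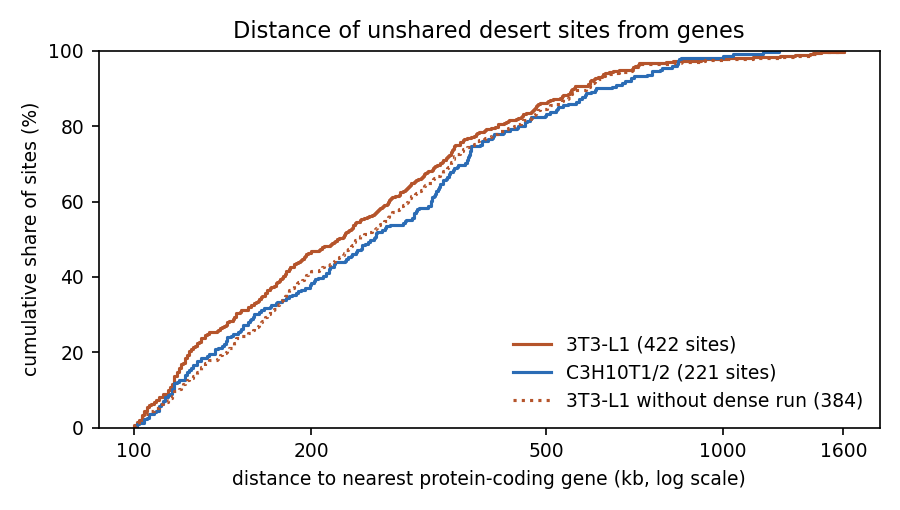
Cumulative share of desert sites (%, vertical axis) by distance to the nearest protein-coding gene (kb, log scale), for 422 sites of 3T3-L1, 221 of C3H10T1/2 and 384 of 3T3-L1 without the dense run. The curves start at the 100 kb limit and reach their middle at 222, 255 and 240 kb, and 14.0% and 16.7% of the 3T3-L1 and C3H10T1/2 sites lie beyond 500 kb.

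The most remote 3T3-L1 site was chr8:7011940-7012094, which lay 1605 kb from Efnb2, the gene of the guidance ligand ephrin-B2, and 1907 kb from the bile acid transporter gene Slc10a2. It was followed by chr2:46585376-46585536 and chr2:46581623-46582158 in the Zeb2 desert, at 1468 and 1464 kb from Zeb2. The fourth, chr7:94602676-94602774, lay 1419 kb from Gm15501, between that gene and the teneurin gene Tenm4. The fifth, chr2:46521643-46521801, was again in the Zeb2 desert at 1404 kb. In C3H10T1/2 the 2 sites chr13:79442972-79443115 and chr13:79844930-79845174 lay 1244 and 1038 kb from the nearer of Nr2f1 and Arrdc3, where Nr2f1 encodes the orphan receptor COUP-TFI. The site chr10:16553367-16553499 lay 1170 kb from Cited2. A lone C3H10T1/2 site in the Zeb2 desert, chr2:46115076-46115218, lay 998 kb from Zeb2, and chr8:42281207-42281470 lay 848 kb from Triml1.

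The desert between Zeb2 and Acvr2a on chromosome 2 held more 3T3-L1 sites than any other apart from the dense run. Zeb2 encodes a zinc finger repressor that acts in epithelial to mesenchymal transition, and Acvr2a an activin receptor. The gap is 3697 kb long, and 15 sites of 3T3-L1 lay in it against 1 of C3H10T1/2 and no shared peak. The 3T3-L1 sites fell into separate stretches. The first 10 lay 553 to 1468 kb from Zeb2, the widest being chr2:46581623-46582158 (536 bp). The other 5 lay 294 to 641 kb from Acvr2a, and 4 of these were inside the long non-coding RNA genes Gm13481 and Gm39809. Between the stretches no peak of either line was listed.

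Deserts of 3T3-L1 sites next in number were those of Nmbr and Cited2 with 9, Marcks and Rfpl4b with 8, and Jag1 and Btbd3, Has2 and Slc22a22, and Slc8a1 and Pkdcc with 7 each. Has2 encodes a hyaluronan synthase that builds the pericellular matrix. Its 7 sites on that side lay 242 to 410 kb from the gene, from chr15:56936498-56936789 to chr15:57104880-57105035, and the C3H10T1/2 list had a single site there, at 147 kb (chr15:56841550-56841783). Another 2 sites of 3T3-L1 lay on its other side, toward Sntb1, at 401 and 523 kb. The desert of Slc8a1, the gene of a sodium-calcium exchanger, and Pkdcc, whose secreted kinase is needed for bone growth, held no C3H10T1/2 site. Its 7 sites lay 168 to 719 kb from Slc8a1, and the nearest C3H10T1/2 peak to any of them was 855 kb away.

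In C3H10T1/2 the largest numbers were 7 sites each between Adamts5 and N6amt1 and between Marcks and Rfpl4b. Adamts5 encodes an aggrecan-cleaving protease of the matrix. Its C3H10T1/2 sites lay at 160, 244, 342, 353, 425, 472 and 1197 kb from the gene, so 6 of the 7 were within 500 kb, while the 3 sites of 3T3-L1 lay at 393, 858 and 895 kb. The same gap held 4 peaks of 3T3-L1 that the lines shared. Deserts with 5 sites of C3H10T1/2 were those of Tox, a gene of a high mobility group box factor, and Car8, of Wac and Fzd8, a Wnt receptor gene, and of Ttll7 and Adgrl2, a latrophilin gene. The 3T3-L1 list had 0, 0 and 1 sites in these. In the desert of Wac and Fzd8, 1 shared peak of 3T3-L1 also lay more than 100 kb from a gene. The widest C3H10T1/2 site, chr4:7560031-7560705 (675 bp), stood in the middle of the Tox desert, 569 kb from Tox and 581 kb from Car8. Of the 5 sites near Fzd8 a pair, chr18:9108943-9109106 and chr18:9109175-9109307, lay 104 kb from that gene.

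Some deserts held sites of both lines that did not coincide. Sites of both lists lay in 59 gaps, which is 29.1% of the gaps with a 3T3-L1 site and 45.0% of those with a C3H10T1/2 site. Those gaps were long, with a median of 1056 kb against 591 kb for gaps with 3T3-L1 sites alone, 614 kb for C3H10T1/2 alone and 387 kb for the 1262 gaps without a site. By sites of both lists together the leading 5 were the deserts of Zeb2 and Acvr2a (16), Marcks and Rfpl4b (15), Nmbr and Cited2 (11), Adamts5 and N6amt1 (10) and Jag1 and Btbd3 (9). Marcks encodes an actin-binding substrate of protein kinase C, Cited2 a partner of the coactivators CBP and p300, and Jag1 a ligand of Notch receptors. Among these 5 the Marcks desert was the most evenly divided, with 8 sites of 3T3-L1 and 7 of C3H10T1/2. It also held 4 shared peaks of 3T3-L1 more than 100 kb from a gene. In the Nmbr desert it was 9 against 2, and in the Jag1 desert 7 against 2. Shared peaks of 3T3-L1 at that distance numbered 1 and 2 there.

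**Figure D3:**
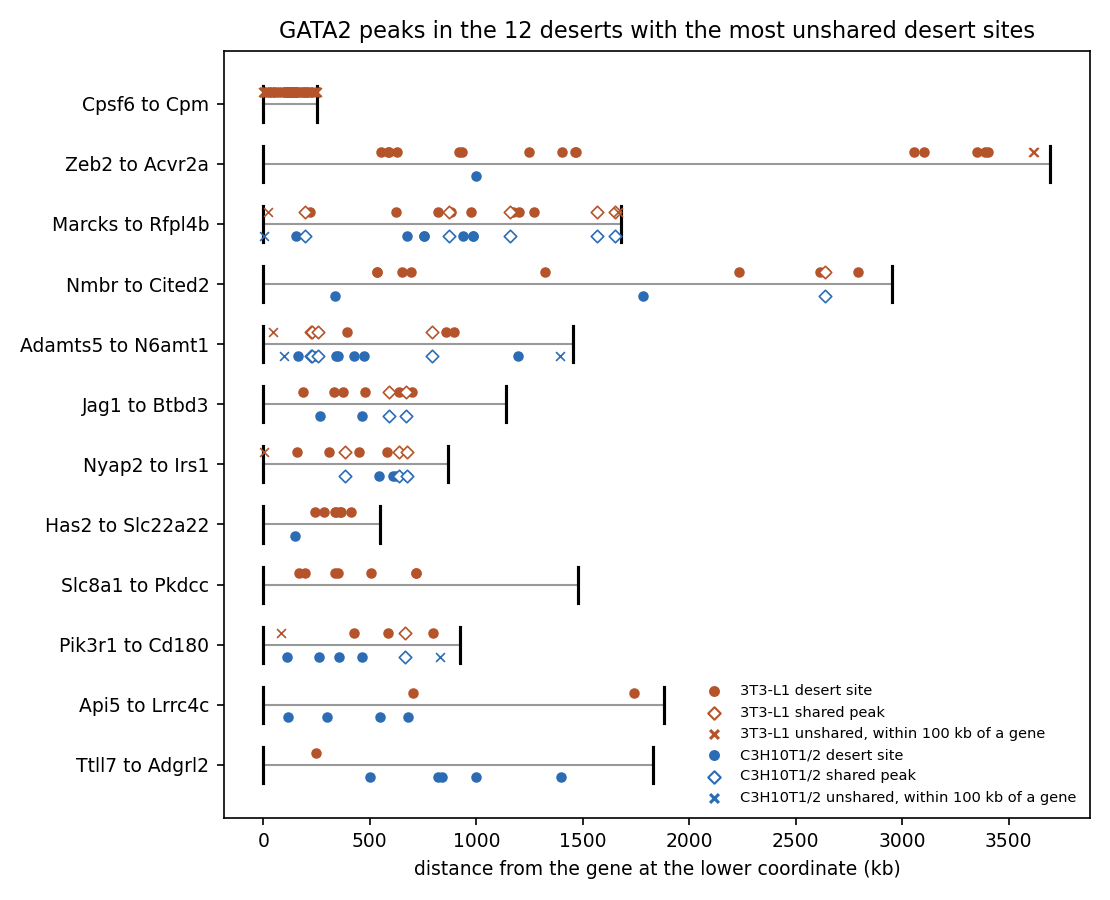
Positions of GATA2 peaks in the 12 deserts with the most unshared desert sites of both lines together, as distance (kb) from the gene at the lower coordinate, with black bars for the genes at each end. Filled circles are desert sites (3T3-L1 above the line, C3H10T1/2 below), open diamonds are shared peaks and crosses are unshared peaks within 100 kb of a gene. The 15 sites of 3T3-L1 in the Zeb2 desert stand in separate stretches, and the 7 sites of C3H10T1/2 in the Adamts5 desert lie mostly toward Adamts5.

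Of the 5 pairs of sites of different lines that came closest without overlapping, the closest lay beyond Trps1, the gene of a GATA-type repressor that acts in cartilage and hair. There chr15:51570744-51570829 of 3T3-L1 and chr15:51572518-51572940 of C3H10T1/2 were 1688 bp apart, 680 kb from Trps1. Next came a pair between Pfn2 and Tsc22d2 (4018 bp apart, chr3:58207075-58207258 and chr3:58202889-58203056). A further pair lay between Eya1 and Msc (9006 bp apart), which encode regulators of organ and muscle development. The last of the 5 lay in the Jag1 desert (9712 bp apart) and in the Marcks desert (10172 bp apart). In each pair the edges were further apart than the width of either peak.

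The genes at the edges of occupied deserts were counted by group. Of 2598 genes that border a gap over 200 kb, 384 (14.8%) flanked a 3T3-L1 site, 249 (9.58%) a C3H10T1/2 site and 118 both. These shares are the background for the lists that follow. A list's share also depends on how long its deserts are, so sites per Mb are given beside it, against 0.519 in 3T3-L1 and 0.298 in C3H10T1/2 over all gaps. The dense run is left out of these densities, and no test was made on the lists.

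Of 107 developmental transcription factor genes, 86 (80.4%) bordered a desert, against 2598 of all 21631 protein-coding genes. A 3T3-L1 site was flanked by 24 of the 86 (27.9%, interval 18.8 to 38.6) and a C3H10T1/2 site by 18 (20.9%, 12.9 to 31.0), and 12 genes flanked both. Their deserts held 0.844 sites of 3T3-L1 and 0.537 of C3H10T1/2 per Mb. With all RefSeq genes but pseudogenes ending a desert, 7 of the listed genes flanked a site of each line. The 12 genes were Gata3, Irx1, Lmo4, Meis1, Nfib, Nr2f1, Nr2f2, Osr1, Sox4, Sox9, Trps1 and Zeb2. The nearest 3T3-L1 sites to a gene of the list were at 117 kb from Klf5 (chr14:99430510-99430623), 131 kb from Zfhx4, 138 kb from Nr2f2 and 152 kb from Nfib. The nearest of C3H10T1/2 were at 124 kb from Sox9 (chr11:112657714-112657937), 130 kb from Sox6 and 249 kb from Msx2. Sox9 and its partner Sox6 drive cartilage formation, and Msx2 acts in skull bone. Around Sox9, 3 sites of each line were listed. Those of 3T3-L1 lay at 239, 711 and 824 kb and those of C3H10T1/2 at 124, 838 and 906 kb. Trps1 was flanked by 5 sites of each line. Meis1, a homeobox gene, was flanked by 3 sites of 3T3-L1 and 1 of C3H10T1/2.

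Genes of extracellular matrix proteins and their enzymes flanked 3T3-L1 sites in 12 of 24 cases (interval 29.1 to 70.9%) and C3H10T1/2 sites in 4 of 24 (16.7%, 4.74 to 37.4). Their deserts held 2.80 and 0.994 sites per Mb. With all RefSeq genes but pseudogenes ending a desert, 3 and 2 genes of the list flanked a site. The 4 genes of C3H10T1/2, Adamts5, Has2, Mmp16 and Thbs1, also flanked 3T3-L1 sites. The other 8 genes of 3T3-L1 were Adamts20, Adamts9, Col12a1, Col3a1, Col8a1, Dcn, Postn and Tnc. Nearest was Col3a1, which encodes fibrillar collagen III, at 132 kb (chr1:45179849-45179976). Postn, the gene of the matricellular protein periostin, followed with 3 sites at 134, 155 and 168 kb. Dcn, the gene of the collagen-binding proteoglycan decorin, had 2 at 174 and 271 kb. Whether this split between the lines differs from that of other genes was not tested.

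Secreted signals and their antagonists flanked 3T3-L1 sites in 10 of 37 cases (27.0%, 13.8 to 44.1) and C3H10T1/2 sites in 8 (21.6%, 9.83 to 38.2). Their deserts held 1.04 and 0.670 sites per Mb. Angpt1, Bmp4, Cxcl12, Rspo3 and Tgfb2 flanked both. Edn1, which encodes the peptide endothelin-1, had a C3H10T1/2 site at 105 kb (chr13:42412772-42412941). Bmp4, a signal for bone and fat commitment, had a C3H10T1/2 site at 106 kb (chr14:46277632-46277798) and a 3T3-L1 site at 149 kb (chr14:46234410-46234517). Cxcl12 encodes a chemokine of stromal cells. Beside it lay 4 sites of C3H10T1/2 on the side of Zfp637, at 151, 324, 328 and 363 kb. There 5 shared peaks of 3T3-L1 also lay more than 100 kb from a gene. The 2 sites of 3T3-L1 lay at 156 kb, toward Tmem72, and at 234 kb. Angpt1, the gene of the vessel-stabilising angiopoietin-1, had 3 sites of 3T3-L1 at 115, 312 and 368 kb and 2 of C3H10T1/2 at 159 and 160 kb, the latter between Angpt1 and Rspo2. In 3T3-L1 the list also included the growth factor genes Fgf10 (129 kb) and Vegfc (144 and 233 kb) and the Wnt antagonist gene Dkk2 (147 and 242 kb).

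Among 32 regulators of mesenchymal, fat, bone and cartilage cells, 15 bordered a desert. Ebf1 and Ptger4 flanked 3T3-L1 sites (13.3%, 1.66 to 40.5) and Ebf1, Mef2c and Runx1 flanked C3H10T1/2 sites (interval 4.33 to 48.1%). Their 5.04 Mb of desert held 3 sites of 3T3-L1 (0.595 per Mb) and 9 of C3H10T1/2 (1.79 per Mb). Those 9 lay beside 3 genes, some of them close together. With all RefSeq genes but pseudogenes ending a desert, 1 and 2 genes of the list flanked a site. With peaks of at least the median width it was 0 and 2. Ebf1 is a factor of early fat cells. Beyond it stood 3 C3H10T1/2 sites at 272, 304 and 373 kb, among them the wide chr11:45311890-45312522 (633 bp), and 1 of 3T3-L1 at 257 kb (chr11:45264996-45265108). The same gap held 2 shared peaks of 3T3-L1 more than 100 kb from a gene. Runx1, a factor of blood and cartilage precursors, had 3 C3H10T1/2 sites at 438, 591 and 600 kb, 2 of them inside the non-coding gene 1700029J03Rik. Mef2c, a muscle and bone factor, had 3 C3H10T1/2 sites at 371, 372 and 658 kb. Pparg and Cebpa flanked no site, but only a gene that borders a gap over 200 kb can flank one. Whether these genes border such a gap is not given here.

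Neuronal adhesion and guidance genes border very long deserts, with a median gap of 1230 kb. They flanked sites in 19 of 75 cases in 3T3-L1 (25.3%, 16.0 to 36.7) and 10 of 75 in C3H10T1/2 (13.3%, 6.58 to 23.2). Per length their deserts held 0.191 and 0.136 sites per Mb, against 0.519 and 0.298 over all gaps. Cdh11, which encodes a cadherin of mesenchymal cells, stood apart within the list with 6 sites of 3T3-L1, at 414 to 1038 kb on the side of Cdh5. On the side of Cdh5, 1 shared peak of 3T3-L1 also lay more than 100 kb from a gene. Cdh11 also flanked 1 site of C3H10T1/2, at 423 kb on the side of Cdh8. Adgrl2 flanked 7 sites of C3H10T1/2 and 1 of 3T3-L1. Of the controls, 1 of 6 bordering ribosomal protein genes (Rps24) flanked 3T3-L1 sites and none flanked a C3H10T1/2 site. None of 26 bordering olfactory and vomeronasal receptor genes flanked a site inside a gap.

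**Figure D4:**
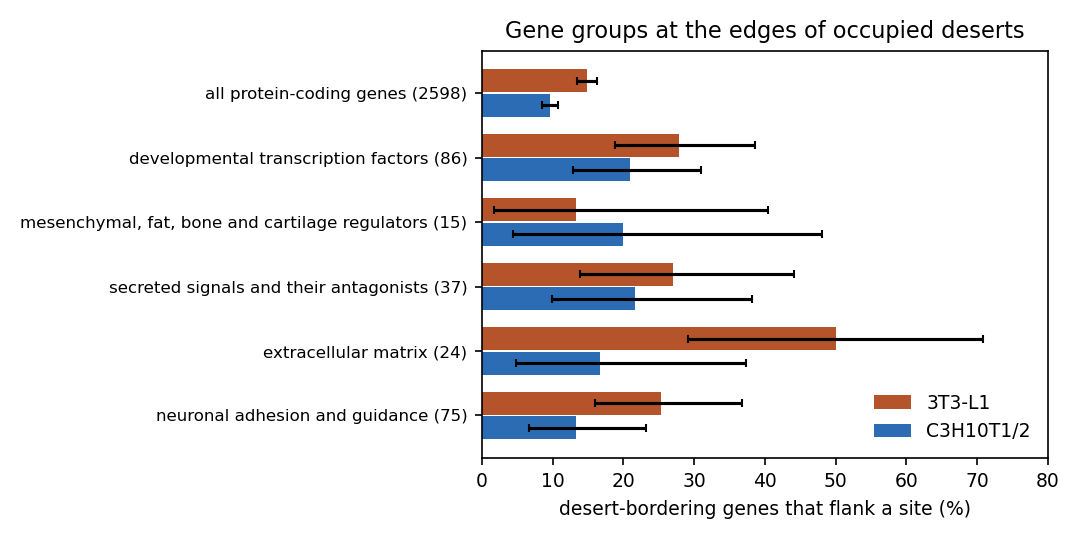
Share of desert-bordering genes (%, horizontal axis) that flank an unshared desert site of 3T3-L1 or C3H10T1/2, for all protein-coding genes and 5 gene groups, with the number of bordering genes in brackets and 95% exact intervals over genes. All genes stand at 14.8% and 9.58%, and for extracellular matrix genes it is 12 of 24 in 3T3-L1 and 4 of 24 (16.7%) in C3H10T1/2.

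Some sites lay inside genes for long non-coding RNAs. It was 69 of 422 in 3T3-L1 (16.4%, 13.0 to 20.2) and 34 of 221 in C3H10T1/2 (15.4%, 10.9 to 20.8), and the difference of 0.966 percentage points (2.58 without the dense run) did not pass the test (Fisher's exact test, both sides, adjusted p = 0.868). Non-coding genes other than pseudogenes cover 10.8% of the desert sequence. The sites of 3T3-L1 lay in 59 different genes and those of C3H10T1/2 in 33. In 3T3-L1, 2600014E21Rik (chr2:75137655-75322407) and D5Ertd615e (chr5:45009171-45424400) held 4 sites each. The first lies in the desert past Mtx2, on the flank of the Hoxd gene cluster, which is known for enhancers of limb development. That desert held 5 sites of 3T3-L1 and none of C3H10T1/2. Gm31281, between Adam28 and the stanniocalcin gene Stc1, held 3. These genes were singled out after their values were seen. A further 3 sites of 3T3-L1 and 1 of C3H10T1/2 lay in genes annotated as pseudogenes.

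How near a site stood to the other line's peaks was then compared. A peak of the other line, shared or not, had its centre within 100 kb of 98 of 422 sites of 3T3-L1 (23.2%, 19.3 to 27.6, or 25.5% of 384) and of 89 of 221 of C3H10T1/2 (40.3%, 33.7 to 47.1). The list searched around C3H10T1/2 sites was the longer one, with 2445 peaks against 1557, and both lists had served to choose the sites, so these shares are a description. At 500 kb they were 64.9% and 65.6%. Within a line the searched list is the same for all peaks. It had also served to choose them as unshared, so the shares within a line are a description too. Within 100 kb, 23.2% of 3T3-L1 desert sites had a C3H10T1/2 peak, against 17.3% of the other 1475 unshared peaks of that list. Without dense runs it was 25.5% against 23.9%. In C3H10T1/2 the shares were 40.3% of sites and 33.5% of other unshared peaks. With sites within 20000 bp counted once, these became 42.3% and 30.7%. Within 20 kb desert sites of both lines stood slightly below other unshared peaks, at 3.79% against 5.49% and 12.2% against 13.4%.

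**Figure D5:**
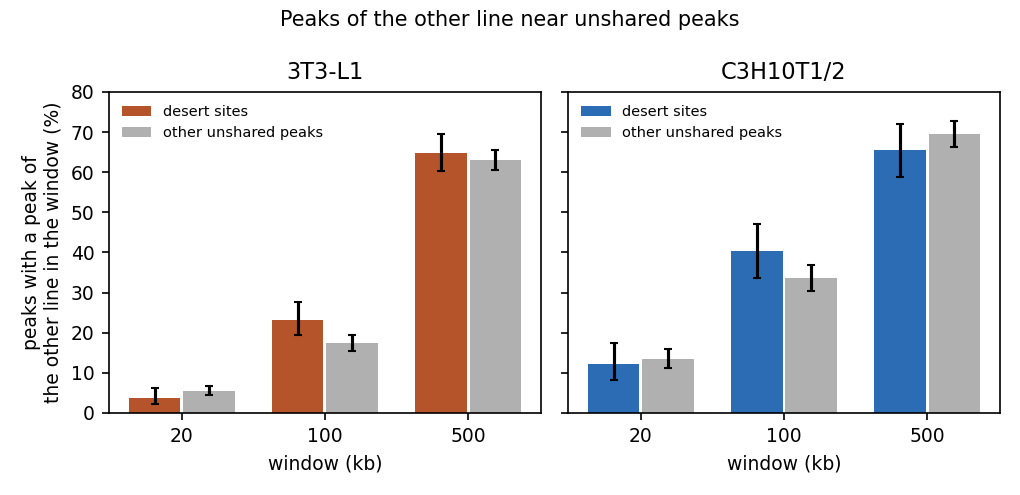
Share of unshared peaks (%, vertical axis) that have a peak of the other line within 20, 100 or 500 kb, for desert sites (coloured) and other unshared peaks (grey) of each line, with 95% exact intervals over peaks. Within 100 kb, 23.2% of 3T3-L1 sites and 40.3% of C3H10T1/2 sites have one, and at 500 kb the lines stand at 64.9% and 65.6%.

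Most sites stood apart from the other desert sites of their list. Shared peaks and peaks nearer genes were not counted as neighbours of a site, and some sites had one close by. With desert sites of the same list at most 20000 bp apart, 112 of 422 sites of 3T3-L1 (26.5%) formed 35 groups and 47 of 221 of C3H10T1/2 (21.3%) formed 22 (difference 5.27 points). The longer list has more sites that can stand close together, so this difference between the lines is a description. Of the 3T3-L1 groups 31 were pairs, and of the C3H10T1/2 groups 19 were. Other unshared peaks of 3T3-L1 were grouped more often (38.4%, exact test, adjusted p = 4.61e-05). In C3H10T1/2 it was 21.3% of sites and 16.3% of other peaks (exact test, adjusted p = 0.160). Without dense runs it was 19.3% of sites and 15.0% of other peaks in 3T3-L1, and 21.3% and 14.3% in C3H10T1/2. Dense runs are defined by the same 20000 bp, so leaving them out removes grouped peaks by construction. It removed 38 sites and 406 other peaks in 3T3-L1, and no site and 19 other peaks in C3H10T1/2. The shares without dense runs are therefore a description. Outside the dense run, the largest group was 6 sites of 3T3-L1 within 8.58 kb between Ifng, the interferon gamma gene, and the kinase gene Dyrk2 (chr10:118613554-118622135). It contained the widest site of that line, at 566 bp (chr10:118621570-118622135), and had no C3H10T1/2 peak within 394 kb. The dense run lies on the same chromosome and ends at 117790202. Groups of 3, singled out after their values were seen, lay between Adam28 and Stc1 and between Csnk1g3 and Zfp608 in 3T3-L1. In C3H10T1/2 they lay between Plk2 and Actbl2, Kcnip4 and Adgra3, and Frg1 and Triml1.

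Widths of desert sites stood close to those of unshared peaks elsewhere. The median was 134 bp in 3T3-L1 (range 51 to 566) against 137 bp for its other unshared peaks, and 172 bp in C3H10T1/2 (95 to 675) against 175 bp. At or over the median width of the whole list were 45.0% of 3T3-L1 sites and 45.6% of its other unshared peaks (difference -0.603 points, Fisher's exact test, adjusted p = 0.868). Without dense runs it was 47.4% and 44.5% (exact test, adjusted p = 0.436). In C3H10T1/2 it was 41.2% and 44.1% (difference -2.92 points, exact test, adjusted p = 0.571). Peaks in deserts that the lines shared had medians of 176 and 203 bp. The 5 widest sites of 3T3-L1 measured 407 to 566 bp. Beside the sites by Ifng and Zeb2 they were chr3:134038968-134039423 between Tet2 and Cxxc4, chr1:163511903-163512329 between Gorab and Mettl11b, and chr10:16094259-16094665 between Nmbr and Cited2. In C3H10T1/2 they measured 471 to 675 bp. Beside the sites by Tox and Ebf1 they were chr2:94983358-94983926 between Api5 and Lrrc4c, chr3:149117188-149117677 by Adgrl2, and chr12:10135836-10136306, 555 kb from Osr1, a regulator of limb and kidney precursors.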

How the data were processed

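GATA2 ChIP-seq peaks of 3T3-L1 and C3H10T1/2 were analysed from 1 deposited list per line, which gives each peak's chromosome, start and end in bp and no score. The authors' tools, per the submitters' processing notes, included MACS2, Bowtie2, bedtools, SAMtools and CASAVA 1.8, on mm10. Their settings, any pooling of the 2 ChIP libraries into a list, the use of input and the threshold are not given in the sources used here. These decide which weak sites a list holds. Depth is unknown, and 1 list per line gives no replicate value.

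Starts were counted from 1. Genes were 21631 protein-coding genes of RefSeq GRCm38.p6 on chromosomes 1 to 19 and X. A flanking gene is the nearest one on each side. Distances run from peak centres. Shares were compared by two-sided Fisher's exact tests, with p-values adjusted by the Benjamini-Hochberg method over 9 tests and called under 0.05. The p-values for nearby peaks are not printed, since both lists had served to choose the sites. Those between the lines for grouping are not printed, since the lists differ in length. Grouping without dense runs carries no p-value, since the runs are defined by the same 20000 bp. The adjustment does not account for the other settings tried. The tests compare 2 lists over counting error, and neighbouring peaks are not independent, so p-values are likely too small. The 7 gene lists held 1866 symbols, of which 1865 matched. The members, lists and tests were chosen with earlier results of these data known. Sites were named by a rule: the 5 farthest and 5 widest of each line, those at the limit, the deserts with the most sites (ties at the fifth place included), the closest pairs, and the sites nearest to listed genes. A planned motif search in the peaks was not run because no genome sequence was used. Scripts ran in Python 3.11.15 with scipy 1.17.1 and were tested on simulated peaks.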

Additional observations from a re-analysis of the deposited data

How the results depend on the processing

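No paired analysis was possible because each line has 1 list and no value per library, and for the same reason no library could be left out. The number of sites followed the limits set. At 50 kb from a gene 3T3-L1 had 651 sites, at 200 kb the lines had 225 and 136, with peaks of at least the median width 190 and 91, and with all RefSeq genes but pseudogenes ending a desert 128 and 80. In settings added after seeing the data, flanking genes numbered 213 and 156 at 200 kb, 236 and 137 with the wider peaks, 155 and 104 with all genes ending a desert, and 385 for C3H10T1/2 at 50 kb. These limits by construction let more or fewer peaks pass. For a peak of the other line nearby, the difference between the lines was -0.682 points at 500 kb. Against other unshared peaks, 3T3-L1 sites stood at -1.70 points within 20 kb, 1.81 within 500 kb, 4.06 with sites counted once and 1.67 without dense runs. C3H10T1/2 sites stood at -1.23 within 20 kb, -3.99 within 500 kb and 11.7 with sites counted once. For grouping, the difference between the lines was 9.54 points at 5000 bp, 10.5 at 100000 bp and -2.00 without dense runs. These differences are a description, since the lists differ in length. Against other unshared peaks, 3T3-L1 stood at -4.23 points at 100000 bp and 4.30 without dense runs, and C3H10T1/2 at 6.98 without dense runs. Leaving out dense runs removes grouped peaks by construction, so these last values are a description. For width, the difference was 0.688 points in C3H10T1/2 with the upper quartile as limit and 2.87 in 3T3-L1 without dense runs. The causes of the changes in direction were not tested. The other 28 values for counts of sites, all flanking genes and tests kept their direction and side of the threshold, or stayed within 1.5 times. Of the counts of listed genes, 21 moved by more than that and 77 did not. With all genes ending a desert, matrix genes went from 12 to 3 in 3T3-L1, and developmental factors from 24 and 18 to 7 in each line. Unknown depth limits every absence of a peak.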

Other observations

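Some peak widths recurred exactly. In 3T3-L1 the most frequent width was 81 bp, held by 26 of 422 desert sites (6.16%, 95% exact interval 4.06 to 8.90, or 6.77% of the 384 outside the dense run) and by 12 of 548 shared peaks (2.19%, 1.14 to 3.79). In C3H10T1/2 it was 124 bp, held by 18 of 221 desert sites (8.14%, 4.90 to 12.6) and 19 of 540 shared peaks (3.52%, 2.13 to 5.44). In other unshared peaks the shares were 4.61% and 7.66%. No source used here says how these widths arose.

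Requiring an overlap of 50% of both peaks for a shared site gave 458 desert sites of 3T3-L1 and 250 of C3H10T1/2. Counting peaks within 1 kb of the other line's peaks as shared gave 421 and 214.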
